A study of Homo sapiens with 15 samples.

Results

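The tight junction genes CLDN2, CLDN1, CLDN3, CLDN4, CLDN7, CLDN12, OCLN, TJP1 and F11R, 9 genes chosen by name, were described across 15 arrays of Caco-2 cells. Where several probe sets named a gene, the one with the highest average level stood for it, and 8 of the 9 were measured in this way among 19775 named genes. F11R, which encodes a junctional adhesion molecule, was not analysed here. Caco-2 is an established line from a human colorectal adenocarcinoma, and the cells were used undifferentiated, before the state in which the line forms an enterocyte-like barrier.

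All cells were kept in serum-free medium for 24 h, with 1 array for each treatment. The control arrays had medium alone or 100 mM NaCl, and another array had 5 mM butyrate, a short-chain fatty acid made by gut bacteria that inhibits histone deacetylases. The other 12 arrays had medium with 10% by volume of cell-free fluid from a colon model in which polydextrose, a poorly digestible glucose polymer, was fermented for 48 h at 0%, 1% or 2%. The model passes its contents through 4 vessels, from an ascending colon (vessel 1) over a transverse (vessel 2) and a descending colon (vessel 3) to a last stage for sigmoid colon and rectum (vessel 4). Each concentration had 4 arrays. The 0% fluids come from a run of the model without polydextrose. Each concentration was a single simulation and the labels list no repeat, so p-values cover no more than the spread of these arrays. Simulation and concentration cannot be told apart. Values are log2 levels from Affymetrix arrays, and a level under 5 was treated as low signal, where only a bound is known.

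Tight junctions are belts near the top of epithelial cells where membrane proteins of neighbouring cells meet and close the space between them. Claudins set what can pass: CLDN2 forms a pore for small cations and water and is raised in leaky epithelia such as the crypts of the gut and the inflamed colon. CLDN1, CLDN3 and CLDN4 are regarded as sealing claudins. CLDN7 has roles in sealing and in adhesion at the side of the cell, and CLDN12 has been linked to calcium transport. OCLN (occludin) is a membrane protein with a stabilising role, and TJP1 (ZO-1) is the scaffold that ties claudins to the actin cytoskeleton.

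The genes lie on chromosomes X (CLDN2), 3 (CLDN1), 7 (CLDN3, CLDN4 and CLDN12), 17 (CLDN7), 5 (OCLN) and 15 (TJP1). CLDN3 and CLDN4 are neighbours with 0 genes between them in RefSeq's GRCh38.p14 annotation. The promoters of CLDN2, the gene that moved most, and of CLDN4, the sealing claudin whose difference between 2% and 0% was farthest from that of CLDN2, are printed for comparison. Each run holds 250 bases before and 50 bases after a RefSeq start, read on the + strand of GRCh38.p14. CLDN2 has 2 starts, at chrX:106899914-106900213 and chrX:106918110-106918409, and the CLDN4 window is chr7:73830746-73831045. Capitals mark matches to 5 motifs searched on both strands: the GC box GGGCGG, the E-box CAGGTG, an HNF1 core GTTAAT, a CDX core TTTATG and the AP-1 element TGANTCA, which reads alike on both strands.
CLDN2 promoter 1: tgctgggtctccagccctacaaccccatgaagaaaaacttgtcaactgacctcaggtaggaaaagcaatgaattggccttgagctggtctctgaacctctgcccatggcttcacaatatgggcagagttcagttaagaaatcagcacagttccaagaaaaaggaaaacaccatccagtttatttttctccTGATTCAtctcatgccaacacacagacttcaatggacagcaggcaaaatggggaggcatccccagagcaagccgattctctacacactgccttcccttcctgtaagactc
CLDN2 promoter 2: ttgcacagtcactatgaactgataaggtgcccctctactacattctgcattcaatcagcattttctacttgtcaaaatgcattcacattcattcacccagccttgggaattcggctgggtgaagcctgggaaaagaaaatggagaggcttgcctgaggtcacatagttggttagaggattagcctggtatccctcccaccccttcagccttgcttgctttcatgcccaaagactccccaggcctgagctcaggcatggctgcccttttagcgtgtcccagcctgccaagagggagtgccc
CLDN4 promoter: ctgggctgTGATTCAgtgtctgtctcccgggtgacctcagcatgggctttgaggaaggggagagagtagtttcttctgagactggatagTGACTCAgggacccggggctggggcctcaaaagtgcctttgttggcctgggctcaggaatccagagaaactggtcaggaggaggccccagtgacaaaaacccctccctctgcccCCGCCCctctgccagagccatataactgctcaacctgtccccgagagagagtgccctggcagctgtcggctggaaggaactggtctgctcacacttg
The first CLDN2 window held 1 AP-1 match, at -60 from the start, and the second held no match to any of the 5 motifs. The CLDN4 window held 2 AP-1 matches, at -242 and -161, and 1 GC box at -47. AP-1 matches were present in 7.71% and GC boxes in 45.0% of 35116 RefSeq promoters of the same length, E-boxes in 20.6%, the HNF1 core in 6.88% and the CDX core in 10.6%. No matches overlapped in the printed windows. The CLDN2 windows were poorer in G and C, at 47.3% and 51.3% with 1 and 2 CG pairs, than the CLDN4 window at 59.0% with 5 CG pairs, and the median of all promoters was 58.7%. The CLDN1 and CLDN3 windows had 67.0% and 72.0% G and C, with 2 and 6 GC boxes. A match describes the letters only and is no evidence of binding, and nothing follows for a factor whose letters were not found.

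CLDN2 was the gene of the group whose level moved most, and it moved downward from medium in every other array. Its level of 8.46 in medium compared with 6.63 in NaCl and 3.04 in butyrate. In the 0% fluids it was 6.55, 4.94, 5.53 and 4.89 from vessel 1 to vessel 4. In the 1% fluids it was 6.87, 4.25, 3.81 and 4.25, and in the 2% fluids 6.20, 3.65, 3.07 and 3.99. The vessel 1 arrays were the high ones at each concentration, and 8 of the 12 fluid arrays were under the low signal limit. The range over all 15 arrays was 5.42, against 0.49 for TJP1 to 1.92 for CLDN1 among the other 7 genes.

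**Figure D1:**
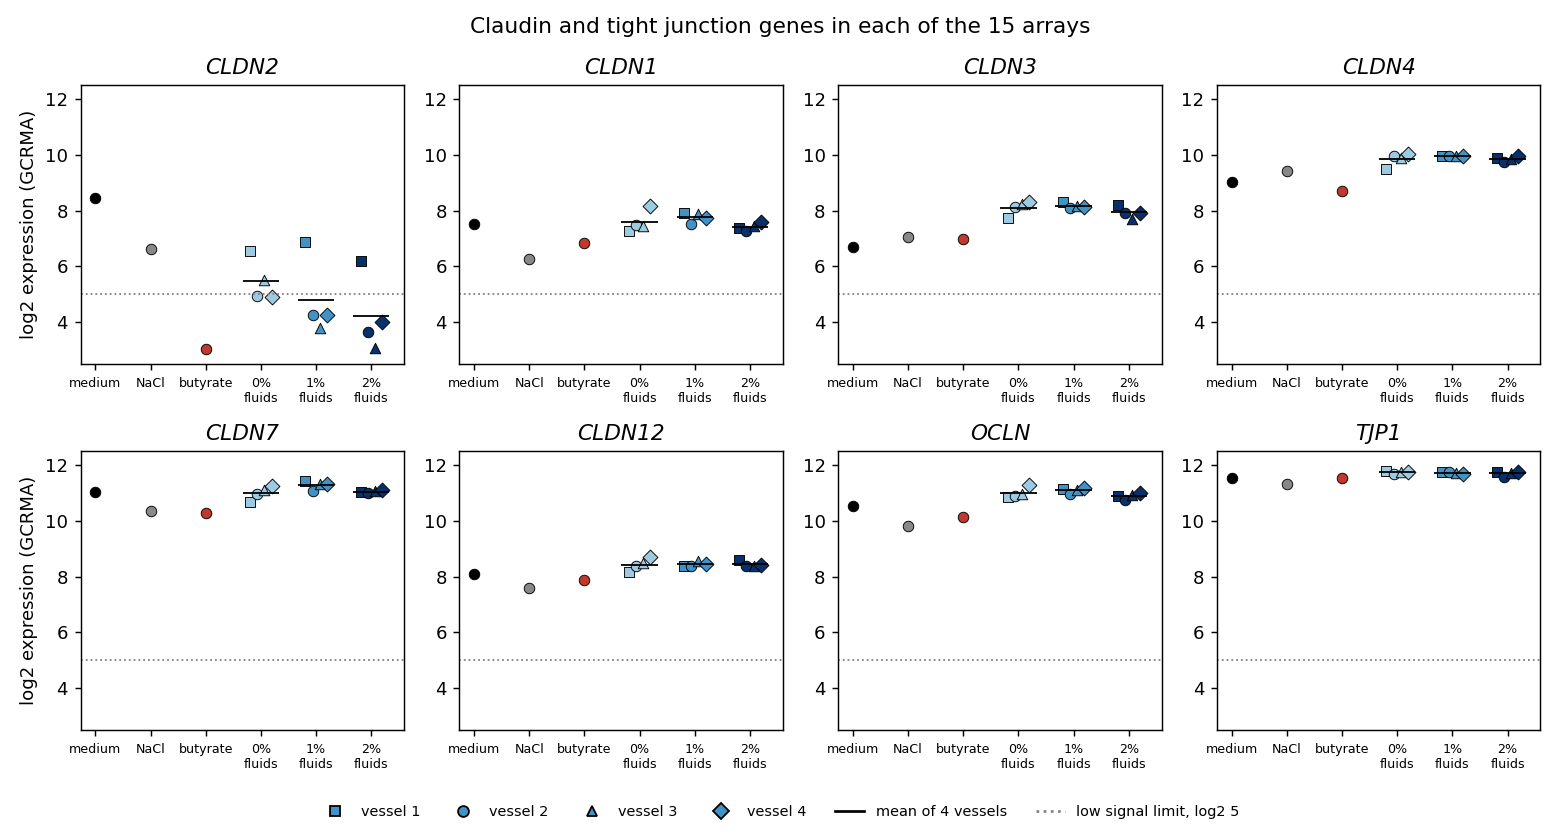
Log2 level of each of the 8 genes in every array, with medium, NaCl and butyrate as 1 point each and the fluids as 4 points (marker shape for the vessel) with a bar at their mean. CLDN2 runs from 8.46 in medium to 3.04 with butyrate and crosses the dotted low signal limit of 5, while the other 7 genes stay above it in all 15 arrays.

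With butyrate CLDN2 was under the limit, so only a bound can be given: it was at least 11.01-fold lower than in medium (a log2 difference of -3.46 or below, and -5.42 as measured). None of the other 7 genes differed by a log2 value of 1 or more. CLDN7 (10.27 against 11.01) and CLDN1 (6.82 against 7.52) had differences of -0.74 and -0.69, OCLN had -0.41, CLDN4 -0.33 and CLDN12 -0.22. CLDN3, at 6.996 against 6.68, was higher by 0.31, and TJP1 was level at 11.53 against 11.52. The count of 1 gene in 8 stands beside 31.2% of all 8057 genes compared (15.6% lower and 15.6% higher), so a difference of this size was common with butyrate and the members were not called more often than other genes. The second probe set of CLDN1 showed a larger difference, from 6.36 in medium to 5.33 (-1.02), while that of CLDN3 was higher by 0.67. With 1 array on each side these differences have no replicate check and no test. In cells measured in bulk, fewer expressing cells and less RNA per cell cannot be told apart.

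With NaCl 2 of these levels were lower past the same limit. CLDN2 was 3.57-fold lower than in medium (-1.83) and CLDN1 2.39-fold lower (6.26 against 7.52, -1.26), 2 of the 8 genes beside 16.6% of 7874 genes. The second CLDN1 probe set gave -0.76. OCLN (9.81 against 10.53), CLDN7 (10.33 against 11.01), CLDN12 (7.61 against 8.10) and TJP1 (11.31 against 11.52) had differences of -0.72, -0.68, -0.49 and -0.22. Another OCLN probe set was lower as well (5.93 against 6.71, -0.79), and a further one was higher, by 0.19, so the direction for OCLN rests on the probe set. CLDN3 and CLDN4 were higher, by 0.37 and 0.41. Against NaCl in place of medium, butyrate gave 0.57 for CLDN1, 0.27 for CLDN12, 0.31 for OCLN, -0.06 for CLDN3 and -0.75 for CLDN4, so the signs of the first 4 depend on the control array. CLDN2 was lower with butyrate against either control.

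**Figure D2:**
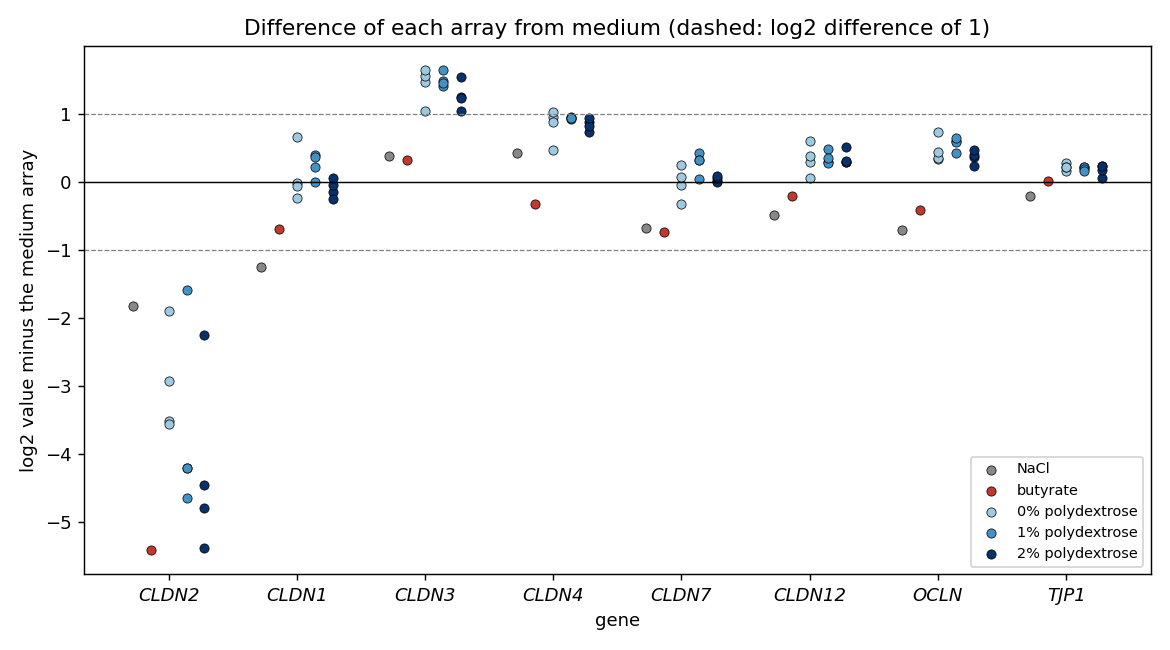
Log2 level of each array minus the single medium array, for each gene, with dashed lines at a log2 difference of 1. All CLDN2 points lie below the lower line, the fluid points of CLDN3 lie above the upper line at 1.03 to 1.64, and the other fluid points lie between -0.32 and 1.02.

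In the fluids the sealing claudins CLDN3 and CLDN4 lay above medium while CLDN2 lay below it. The medium array also had the highest 3′ minus 5′ level of ACTB, a measure of RNA quality, at 0.951 against 0.641 in NaCl, 0.585 in butyrate and 0.366 to 0.924 in the fluids, and its part in the differences from medium was not tested. CLDN3 was 6.68 in medium and reached 7.72, 8.15, 8.23 and 8.32 in the 0% fluids, 8.32, 8.09, 8.17 and 8.13 in the 1% fluids and 8.22, 7.92, 7.72 and 7.91 in the 2% fluids. All 12 fluid arrays were higher than medium, NaCl (7.06) and butyrate (6.996). The second CLDN3 probe set was higher in the fluids as well, by 1.37 on average. CLDN4 stood at 9.02 in medium, at 9.43 in NaCl and at 8.69 in butyrate. It was 9.49, 9.97, 9.89 and 10.04 in the 0% fluids, 9.96, 9.94, 9.96 and 9.96 in the 1% fluids and 9.89, 9.75, 9.84 and 9.96 in the 2% fluids. The lowest fluid array, vessel 1 of 0%, was only just above NaCl. The second CLDN4 probe set was at 1.66 to 2.25 in all arrays and could give no check. CLDN1, the other sealing claudin, did not follow them: 5 of its fluid arrays were above the 7.52 of medium and 7 below, from 7.27 to 8.17. In its second probe set 8 of the 12 fluid arrays were above medium, so the count rests on the probe set.

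Of the remaining genes, CLDN12, OCLN and TJP1 were higher than medium in all 12 fluid arrays, by small amounts. The median difference was 0.42 for OCLN (0.23 to 0.73), 0.30 for CLDN12 (0.05 to 0.59) and 0.21 for TJP1 (0.05 to 0.27), against 1.45 for CLDN3 (1.03 to 1.64) and 0.93 for CLDN4 (0.47 to 1.02). CLDN7 lay on both sides of medium, above it in 9 arrays (median 0.06). The count of 5 genes with all fluid arrays above medium stands beside 31.9% of 8241 genes, and the 1 gene with all of them below it, CLDN2, beside 29.7%. The same 5 genes were above NaCl and butyrate too in all 12 arrays, beside 4.15% of all genes. Both counts depend on the scaling: with each array centred on its own median, CLDN3, CLDN4 and OCLN (3 genes) were above medium in all 12 arrays, beside 21.9% of genes, and CLDN3 and OCLN (2 genes) were above all 3 other arrays, beside 3.06%. CLDN12 was then above medium in 11 arrays and TJP1 in 7. Another OCLN probe set was above medium in 12 arrays but above NaCl (8.59) in only 10, with 8.41 as its lowest. Medium is 1 array that all these differences share, so they are described without a test. OCLN has a near-copy in the genome, the transcribed pseudogene OCLNP1, and its probe sets could read both.

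For the mean of the 0% fluids against medium, CLDN2 (-2.98) and CLDN3 (1.42) differed by a log2 value of 1 or more, 2 of 8 genes beside 12.6% of 7820 genes. For the 2% fluids they were again the 2 genes, at -4.23 and 1.26, beside 23.2% of 7925 genes. CLDN2 was under the limit in 2 arrays of 0% and 3 of 2%, so its means rest in part on low signal. With those arrays raised to 5, its differences from medium were -2.94 for 0% and -3.16 for 2% fluid. CLDN4 had 0.83 and 0.84. When each array was centred on its own median, all differences from medium moved by -0.17 for these fluids and -0.22 for butyrate. The sign then turned for CLDN1 with 0% fluid (from 0.08 to -0.09), for CLDN7 and TJP1 with 2% fluid (from 0.03 to -0.14 and from 0.17 to -0.0038) and for TJP1 with butyrate (from 0.01 to -0.21), while CLDN2, CLDN3 and CLDN4 kept theirs. Over all genes past the limit, the share that was higher fell with this centring from 62.0% to 41.7% for 0% fluid, from 50.7% to 37.8% for 2% fluid and from 50.1% to 36.2% for butyrate. With NaCl as the control, CLDN1 (1.34), CLDN3 (1.05), OCLN (1.18) and CLDN2 (-1.15) were past the limit for 0% fluid, 4 genes in place of 2. For 2% fluid CLDN1 (1.16), OCLN (1.08) and CLDN2 (-2.40) were past it against NaCl, and CLDN3, at 0.88, was not.

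Between vessel 1 and the later vessels CLDN2 was the 1 gene of the 8 that differed past the threshold. In the vessel 1 fluids CLDN2 was 6.54 ± 0.33 (SD, n = 3), and in vessels 2 to 4 it was 4.27 ± 0.75 (SD, n = 9). The groups did not overlap, with 6.20 as the lowest vessel 1 array and 5.53 as the highest of the others, 8 of which were under the limit. The difference was 2.28 (95% interval 1.65 to 2.90, adjusted p = 0.000952 by limma over 8737 genes). With values under 5 raised to 5 it was 1.48, with an adjusted p = 0.000332 by limma. CLDN2 reached 5 in no more than the 4 fluid arrays needed to be tested, the 3 of vessel 1 and vessel 3 of 0% (5.53). It thus passed the filter only through the group where it is high, so these p-values are no independent support. The other 7 genes differed by -0.14 to 0.06 and did not pass, with 95% intervals between -0.42 (CLDN1) and 0.34 (CLDN3). The 1 gene of 8 stands beside 34.7% of all genes called in this comparison, and beside 6.58% of genes with every vessel 1 array above all others. Other probe sets of CLDN1 (-0.42, adjusted p = 0.0467), OCLN (-0.38, adjusted p = 0.0283) and TJP1 (-0.23, adjusted p = 0.0491) passed by limma as lower in vessel 1, so the probe set decides whether these genes are called. TJP1 changed sign between its probe sets, from 0.06 to -0.23. The 3′ minus 5′ level of ACTB was 0.620 to 0.924 in the vessel 1 arrays and 0.366 to 0.636 in the others, and its part in this result was not tested.

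**Figure D3:**
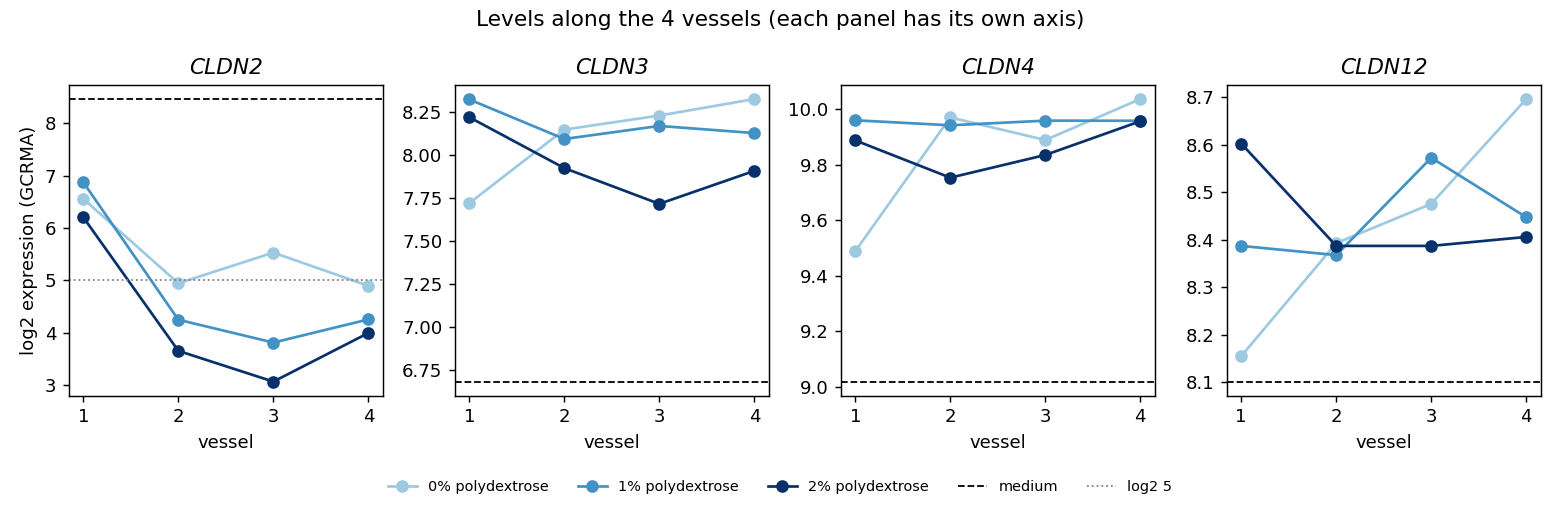
Log2 level of CLDN2, CLDN3, CLDN4 and CLDN12 from vessel 1 to vessel 4 for each polydextrose concentration, with the medium array as a dashed line; each panel has its own axis. CLDN2 lies at 6.20 to 6.87 in vessel 1 and at 5.53 or less in the later vessels, while the other panels span 0.61 or less over the 12 fluids.

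Fluids from the simulation with 2% polydextrose were set against those from the separate simulation with 0%. CLDN2 fell from 5.48 ± 0.77 to 4.23 ± 1.37 (SD, n = 4), a difference of -1.25 (95% interval -1.92 to -0.59, adjusted p = 0.0194 by limma). It was lower with 2% in each of the 4 vessels, with differences of -0.35 in vessel 1, -1.29 in vessel 2, -2.46 in vessel 3 and -0.90 in vessel 4. It was the 1 gene of 8 that passed, beside 20.8% of all 8737 genes. CLDN2 passed the filter with no more than the 4 fluid arrays needed, 1 of them vessel 3 of 0% (5.53). That array lies in the group where CLDN2 is high, so this p-value is no independent support. The call rests on values under the limit: with these raised to 5 the difference was -0.22 and did not pass (adjusted p = 0.285 by limma). It was also lost by limma when vessel 2 of 0% was left out (adjusted p = 0.0659), or vessel 2 (0.0625) or 3 (0.0679) of 2%, and without the block for vessel (0.311).

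The sealing claudins gave no call for 2% against 0%. CLDN3 was 8.10 ± 0.27 with 0% and 7.94 ± 0.21 with 2% (SD, n = 4), a difference of -0.16 (95% interval -0.50 to 0.18, adjusted p = 0.470 by limma). CLDN4 was 9.85 ± 0.25 and 9.86 ± 0.09 (SD, n = 4), a difference of 0.01 (-0.22 to 0.25, adjusted p = 0.946 by limma). CLDN1 was 7.60 ± 0.40 and 7.42 ± 0.13 (SD, n = 4), a difference of -0.18 (-0.52 to 0.16). These intervals leave room for log2 changes of up to 0.52 in size. CLDN3 was split by vessel: the difference was 0.50 in vessel 1 and -0.22, -0.51 and -0.42 in vessels 2 to 4. Without vessel 1 of 0% its difference was -0.36 and passed (adjusted p = 0.0113 by limma), and without all arrays of vessel 1 it was -0.38 (adjusted p = 0.0102).

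CLDN7, CLDN12, OCLN and TJP1 did not pass either, with differences of 0.05, 0.02, -0.10 and -0.04 for 2% against 0%. In the 0%, 1% and 2% fluids CLDN7 was 10.995 ± 0.24, 11.28 ± 0.16 and 11.04 ± 0.04 (SD, n = 4). OCLN was 10.99 ± 0.19, 11.09 ± 0.10 and 10.89 ± 0.10, CLDN12 8.43 ± 0.22, 8.44 ± 0.09 and 8.45 ± 0.10, and TJP1 11.74 ± 0.05, 11.71 ± 0.03 and 11.69 ± 0.08. TJP1 was the steadiest of the 8 genes over the 15 arrays. CLDN7 and OCLN, with higher means at 1% than at both other concentrations, did not pass for 1% against 0% (0.29, adjusted p = 0.144, and 0.10, adjusted p = 0.435 by limma).

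At the lower concentration none of the 8 genes passed, beside 4.78% of all genes, with 2 of the 8 (CLDN2 and CLDN7) at an unadjusted p under 0.05 by limma. CLDN2 was 4.80 ± 1.40 with 1% fluid (SD, n = 4), a difference from 0% of -0.69 (95% interval -1.35 to -0.02, adjusted p = 0.190 by limma). The difference was 0.31 in vessel 1 and -0.70, -1.72 and -0.64 in vessels 2 to 4. Leaving out 1 array gave -0.31 (adjusted p = 0.425 by limma) at the weakest, and raising values under 5 to 5 gave -0.05 (adjusted p = 0.842). Without vessel 1 of 0% it passed at -1.002 (adjusted p = 0.0311 by limma), and without all of vessel 1 at -1.02 (adjusted p = 0.0468). The limit from the filter, given above for 2%, holds for these p-values as well. Between 2% and 1% none of the 8 passed, beside 0% of all genes, with 1 (OCLN, -0.20) at an unadjusted p under 0.05 by limma and 1608 of all 8737 genes. CLDN2 differed there by -0.57 (adjusted p = 0.324 by limma), or by -0.17 with values under 5 raised to 5. CLDN2, CLDN1, CLDN3, CLDN4, CLDN7 and OCLN were each lower with 2% than with 1% in all 4 vessels, with CLDN4 at only -0.0017 in vessel 4. The share of all genes lower in all 4 vessels was not counted, so it cannot be said whether this is particular to them. In vessels 2 to 4 CLDN2 was under the low signal limit at both concentrations, so its direction there is as measured only.

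**Figure D4:**
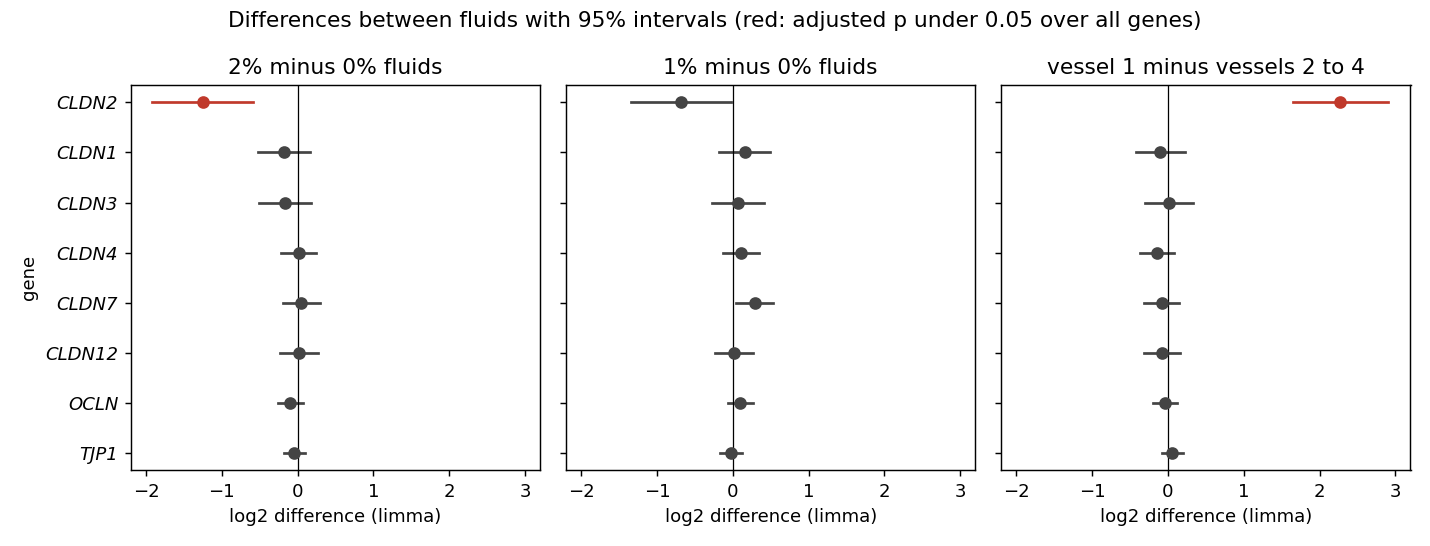
Fitted log2 differences of the 8 genes with 95% intervals, for 2% minus 0% fluids, 1% minus 0% fluids and vessel 1 minus vessels 2 to 4; red marks an adjusted p under 0.05. CLDN2 is red at -1.25 and at 2.28, and the other 7 genes lie between -0.18 and 0.29 in the 3 panels.

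The response to concentration was compared between vessel 1 and the later vessels as a difference of slopes per percent of polydextrose. None of the 8 genes passed by limma, beside 1.17% of all genes, with 3 of the 8 at an unadjusted p under 0.05. These were CLDN3 (0.44, adjusted p = 0.0685), CLDN12 (0.29, adjusted p = 0.128) and CLDN4 (0.26, adjusted p = 0.149), each with the higher slope in vessel 1. CLDN3 passed at 0.0370 without vessel 1 of 1%. CLDN2 had 0.60 (95% interval -0.06 to 1.26, adjusted p = 0.294 by limma), and with values under 5 raised to 5 it had -0.09.

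Whether CLDN2 parted from the other junction genes was tested directly, with the level of CLDN2 minus that of each gene as the outcome of the same linear model. For 2% against 0% CLDN2 moved below all 7 genes, by -1.07 against CLDN1 (adjusted p = 0.0384), -1.09 against CLDN3 (0.0268), -1.26 against CLDN4 (0.0268) and -1.30 against CLDN7 (0.0268). For CLDN12, OCLN and TJP1 it was -1.27, -1.15 and -1.21. The share of all genes from which CLDN2 parted in the same way was 90.3%, so the 7 of 7 is not particular to claudins. All these differences share the CLDN2 values and stand or fall together, so the 7 are 1 observation. CLDN2 itself was not filtered in this test. It passes the filter of the other tests only with vessel 3 of 0%, from the group where it is high. The p-values for 2% are thus no independent support. For vessel 1 against later vessels CLDN2 parted from 7 of 7 genes, by 2.22 (TJP1) to 2.42 (CLDN4), each with an adjusted p = 0.00109 by this linear model. It parted from 99.8% of all genes there, so this restates the vessel difference of CLDN2 and is no second support for it. With values under 5 raised to 5, the 2% difference against CLDN3 was -0.06 (adjusted p = 0.881) and against CLDN4 -0.23 (adjusted p = 0.478), and 0 of 7 passed. The vessel difference against CLDN3 was then 1.47 (adjusted p = 0.000578) and all 7 passed. The 2% call was also lost for all 7 genes without vessel 2 or 4 of 0% or vessel 2 or 3 of 2%, with adjusted p of 0.0576 to 0.113.

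Over the 12 fluid arrays the 21 pairs among the 7 genes other than CLDN2 had a median Pearson r of 0.62 (-0.15 to 0.94), highest for CLDN1 with OCLN and lowest for CLDN7 with TJP1. The 7 pairs with CLDN2 had a median of 0.00 (-0.24 to 0.57, the highest with TJP1). Of the 12 CLDN2 values 8 were under the low signal limit and entered as measured. TJP1 stood apart from the others in the fluids, with r of -0.15 to 0.28 with the remaining 6 genes, but its level spanned only 0.22 there. Over all 15 arrays its r with the same 6 genes was 0.60 (CLDN4) to 0.88 (OCLN), and CLDN3 and CLDN4 had r = 0.90. These arrays share vessels and simulations, so the values describe them only.

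The genes whose pattern over the 15 arrays was most like that of CLDN2, among 8736 genes, were KRTCAP2 (r = 0.983), ASCL2 (0.980), GPD2 (0.980), HNRNPUL1 (0.976) and TRIP13 (0.973). ASCL2, a transcription factor of intestinal stem cells, went from 9.09 in medium to 8.26 in NaCl and 5.74 in butyrate. In the fluids it was 7.96 to 8.31 in vessel 1 and 5.74 to 7.64 in the later vessels. TRIP13, an ATPase of the mitotic checkpoint, went from 9.51 in medium to 6.35 with butyrate. KRTCAP2 spanned only 10.37 to 11.02, so a like pattern does not mean a like size of change. Of the 15 CLDN2 values 9 were under the low signal limit and entered as measured, so the ranking rests in part on low signal. Nearest to CLDN4 were TANC1 (r = 0.962), RBM47 (0.953) and SH3GLB1 (0.946).

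Other claudins were mostly at low signal in these cells. Of 15 further claudins 14 had a probe set, and 11 of them were under 5 in all 15 arrays. CLDN23 was the 1 that could be tested: it was 5.44 in medium and 5.91 to 6.53 in the fluids, and its difference of 0.28 for 2% against 0% did not pass (adjusted p = 0.101 by limma).

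Genes of junction proteins beside the claudins were higher with butyrate and in the fluids in some cases and lower in others. In the list of plaque and polarity genes 3 of 12 compared were higher by a log2 value of 1 or more with butyrate, beside 15.6% of all genes, 0 were lower, and the list's median was 0.65 against 0.00 for all genes. CGN (cingulin, a cytoplasmic linker to the cytoskeleton) was 6.25 in medium, 7.96 with butyrate and 7.52 to 8.35 in the fluids. PRKCZ (an atypical protein kinase C of the polarity complex) was 7.58 in medium, 9.28 with butyrate and 8.57 to 9.55 in the fluids. TJP3 (ZO-3, a relative of TJP1) was 6.72, 8.34 and 8.05 to 8.82. All fluid arrays were above medium for these 3 genes, and the 3 were past the limit for 0% and 2% fluid as well, beside 12.6% and 23.2% of all genes in either direction.

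The junction membrane list had a median of -0.48 with butyrate, against 0.00 for all genes. MARVELD3 (-0.95), MARVELD2 (-0.77) and EPCAM (-0.48) were lower there, and LSR (0.78) was higher. CXADR (the coxsackievirus and adenovirus receptor, an adhesion protein of the junction) was the 1 of 5 past the limit with butyrate, beside 31.2% of all genes in either direction. It stood at 10.46 in medium, 10.52 in NaCl, 11.80 in butyrate and 11.38 to 12.13 in the fluids. By limma it also rose with 2% against 0% (0.29, adjusted p = 0.0360) and was lower in vessel 1 (-0.40, adjusted p = 0.00502), the reverse of CLDN2 in both. In each of these comparisons CXADR was the 1 of 5 called, beside 20.8% and 34.7% of all genes. Of 13 plaque and polarity genes tested for 2% against 0%, PRKCZ rose (0.34, adjusted p = 0.0459) and PARD3, a polarity scaffold, fell (-0.27, adjusted p = 0.0255), with a list median of 0.17 against -0.01 for all genes. These 2 of 13 stand beside 20.8% of all genes called. CRB3 (-0.42), PRKCZ (-0.40) and MAGI3 (-0.40) were lower in vessel 1 by limma, with adjusted p of 0.00478, 0.0129 and 0.0127, which is 3 of 13 beside 34.7% of all genes.

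The adherens junction list had 0 of 5 genes past the limit with butyrate (median 0.30), beside 31.2% of all genes. By limma 0 of 5 were called for 2% against 0% (median -0.05), beside 20.8% of all genes. CDH1 (E-cadherin), from this list, was at 12.70 in medium and 12.95 to 13.21 in the fluids. Of 7 actomyosin genes 2 were higher with butyrate, beside 15.6% of all genes, ARHGAP17 (1.47) and ARHGEF18 (1.34). For 2% against 0%, 0 of the 7 were called, beside 20.8%. MYLK, the myosin light chain kinase that contracts the ring beneath the junction, was named after its values were seen. It was 6.65 in medium, 7.46 with butyrate and 7.70 to 9.02 in the fluids, and its concentration slope was higher in vessel 1 (0.68, adjusted p = 0.0272 by limma). This 1 of 7 stands beside 1.17% of all genes. The call was lost when vessel 1, 2 or 4 of 0% was left out, since 0 of 8737 genes then passed. Of 3 transcription factors compared that are linked to claudin genes, 1 was lower with butyrate, beside 15.6% of all genes: GRHL2, at 6.33 against 7.61 (-1.28). By limma 0 of the 3 were called for 2% against 0%, beside 20.8% of all genes.

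**Figure D5:**
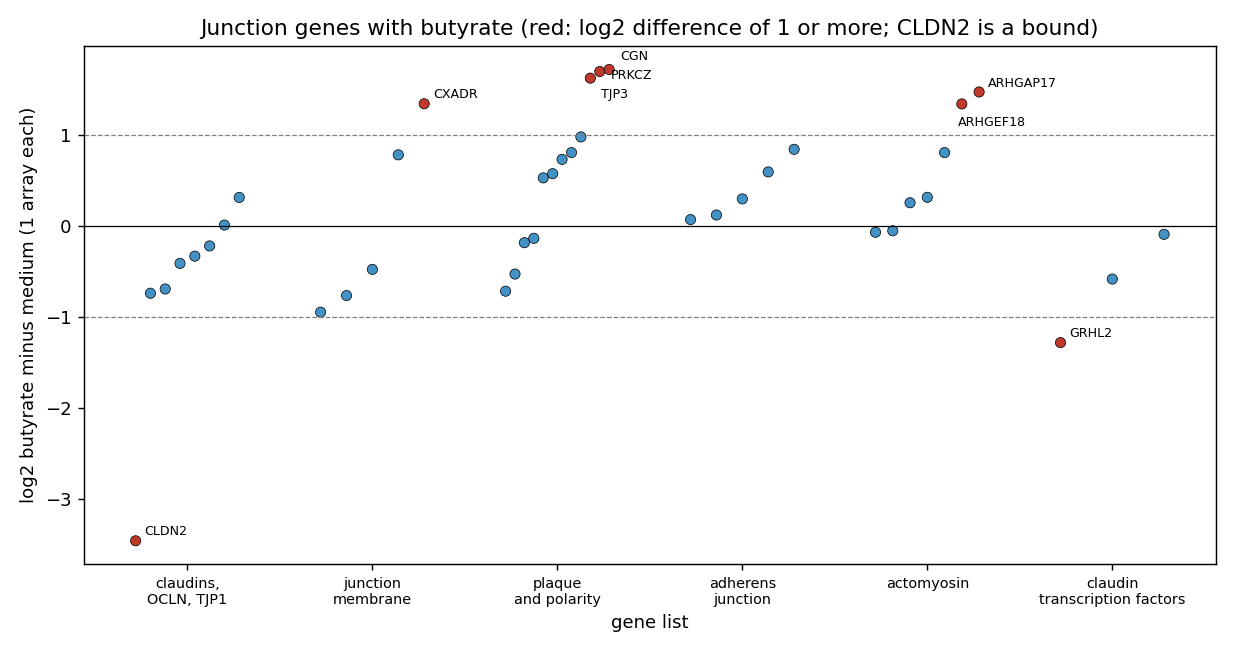
Log2 difference of butyrate from medium for each gene compared in 6 lists, 1 array on each side, with dashed lines at a log2 difference of 1; CLDN2 is drawn at its bound of -3.46. The genes past the limit are CLDN2 and GRHL2 below, and CXADR, CGN, PRKCZ, TJP3, ARHGAP17 and ARHGEF18 above.

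Between 42.27% and 44.1% of genes reached 5 or more in each array. Of 7 epithelial markers EPCAM, CDH1, KRT8, KRT18 and KRT20 were well above the limit in all arrays, while VIL1 (2.05 to 2.78) and CDX2 (3.44 to 4.95), markers of intestinal cells, were under it. Of 6 fibroblast markers 5 were under the limit in all arrays, and COL1A1 ran from 1.37 in medium to 8.26. The log2 of their summed level stood at 4.66 in medium, 4.98 in NaCl, 8.24 in butyrate, 5.95 to 6.93 in vessel 1 fluids and 6.75 to 8.37 in the later ones, opposite to CLDN2, and its part in the results was not tested. The 3 leukocyte and 4 endothelial markers measured were under the limit in all arrays.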

How the data were processed

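Total RNA of each treatment was read on 1 Affymetrix array. The deposited values are log2 expression of 54675 probe sets, made by the authors with GCRMA per the submitters' processing notes, and were not normalized again. Probe sets were named through the platform annotation given: 41097 had 1 symbol, 1801 several and 11777 none. Genes at 5 or more in at least 4 of the 12 fluid arrays were tested (8737) with limma 3.58.1 in R 4.3.3, with concentration and vessel as factors and 6 residual degrees of freedom. Tests were two-sided, with Benjamini-Hochberg adjustment over all genes and a threshold of 0.05. In the test of parting the spread was taken from each difference alone, without moderation, since all differences share the residuals of CLDN2. This was decided after seeing the fit, and these tests stand or fall together. Single arrays were compared by a log2 difference of 1 or more with the brighter side at 6 or more, and a side with every array under 5 was set to 5 and gives a bound.

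Vessel number pairs arrays because it names a shared compartment: deviations from the concentration mean correlated over 12 same-vessel pairs at a median of 0.376, with 10 above 0.1. The fits were tested on simulated data. Named genes were the 9 chosen, the 5 and 3 genes most like CLDN2 and CLDN4, and from each list up to 4 passing for 2% against 0% and up to 3 past the limit with butyrate. The members and lists were chosen with earlier results of these data known. Promoters are RefSeq's (GRCh38.p14), and protein sequences were not used here.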

Additional observations from a re-analysis of the deposited data

Results flagged for a closer look

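Of 24 groups of 4 arrays examined, 1 for each of the 8 genes at each concentration, 3 held a value far from the rest, and chance alone marks about 1 in 20 such groups. CLDN2 in vessel 1 of 1% fluid, at 6.87, stood above the other vessels at 3.81 to 4.25. CLDN12 in vessel 1 of 2% fluid, at 8.60, stood above 8.39 to 8.41. CLDN4 in vessel 2 of 1% fluid, at 9.94, stood below 9.96, but the whole group spans only a few hundredths of a log2 unit.

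Several genes moved one way in vessel 1 and the opposite way in each of vessels 2 to 4. For 2% minus 0% the vessel 1 difference was 0.50 for CLDN3, 0.40 for CLDN4, 0.45 for CLDN12 and 0.035 for OCLN, while the later vessels were lower. For 1% minus 0% it was 0.60 for CLDN3 and 0.31 for CLDN2, with the later vessels lower. Each of these vessel 1 differences subtracts the same array, vessel 1 of 0%, so they are not separate observations. That array held the lowest fluid level of CLDN4 (9.49) and of CLDN12 (8.155). The split for each pair of concentrations was not tested as such. The related difference in concentration slopes did not pass for any of the 8 genes by limma, with CLDN3 the nearest at an adjusted p of 0.0685.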

How the results depend on the processing

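The count of genes called for 2% against 0% (1, CLDN2) became 2 with array weights and 2 without all arrays of vessel 1, CLDN3 being the other gene. It became 0 with a stricter low signal limit, under which CLDN2 was not tested, 0 with no replicate block for vessel, 0 with only the 8 arrays of these concentrations and 0 with values under 5 raised to 5, a setting chosen after seeing the data. Leaving out each array in turn gave 0 to 2. Over all these settings the adjusted p of CLDN2 by limma ranged from 0.000963 to 0.311. For 1% against 0% the count (0) became 1 with array weights and 1 without all arrays of vessel 1, both CLDN2, and leaving out arrays gave 0 to 1. For 2% against 1% it was 0 in all settings. For vessel 1 against later vessels the count (1) became 0 under the stricter limit, which leaves CLDN2 out, and leaving out arrays gave 1 to 2. There CLDN2 kept an adjusted p of 0.000178 to 0.00961 by limma wherever it was tested. In the main setting it passed the filter only with its vessel 1 arrays and vessel 3 of 0%, which limits the 2% call as well. TJP1 reversed with its other probe set (-0.23 in place of 0.06). The slope count (0) became 1 with an intensity trend and robust prior (CLDN3), and leaving out arrays gave 0 to 1. The 7 genes parting from CLDN2 at 2% became 0 with no replicate block and 0 with values raised to 5, and leaving out arrays gave 0 to 7, while the vessel difference kept 7 throughout. CLDN2 was not filtered in the test of parting, so the stricter limit, which CLDN2 does not reach, is no check of either result. For 0% fluid against medium the count (2) became 4 with NaCl in place of medium. The counts for butyrate, for NaCl and for 2% fluid kept within 1.5 times the main value. For 2% fluid the genes changed with NaCl as the control: CLDN3 (0.88) was lost, and CLDN1 (1.16) and OCLN (1.08) were added. Over all genes, 1820 passed for 2% against 0%, and 0 did with no replicate block. The cause of these changes was not tested, apart from CLDN2 leaving the test under the stricter limit. Low signal limits what is known of CLDN2: with butyrate and in vessels 2 to 4 most of its values are bounds.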
